A study of Mus musculus with 34 samples.

Results

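Cultured mouse Sertoli cells given retinoic acid (RA) were compared with the same kind of culture given vehicle, on 4 of the 34 arrays of the series: 2 arrays labelled RA and 2 labelled vehicle. Sertoli cells are somatic, line the seminiferous tubule, and surround and nourish the germ cells. Both groups were primary Sertoli cells from wild-type C57BL6/j mice of 6 to 8 weeks, kept for 24 h with RA or with vehicle, and neither carried a transgene or knockout per the labels. The labels give the RA dose as 1 mM, a unit that could not be checked in the files, and name neither the vehicle nor the medium. Each array held Cy3-labelled RNA of 1 sample on a one-colour Agilent design. The design text calls the pairs biological duplicates, but the animals behind each culture, and any pooling, are not given, so the p-values measure the spread between these arrays. All 4 arrays lay on 1 slide scanned on 1 day, with the RA samples at positions 3 and 4 and the vehicle samples at positions 1 and 2, so treatment and position on the slide cannot be told apart.

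Retinoic acid is made inside cells from retinol (vitamin A) by retinol dehydrogenases and then retinaldehyde dehydrogenases, and it is destroyed by the cytochromes of the Cyp26 family. It acts through the retinoic acid receptors (Rara, Rarb, Rarg), which sit on DNA with retinoid X receptors at response elements made of repeated short motifs, and switch nearby genes on when RA binds. In the testis RA is known for driving spermatogonia into differentiation and meiosis and for pacing the cycle of the seminiferous epithelium. Sertoli cells both make RA and respond to it.

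Of the 20 measured Sertoli markers, all were well above background on the 4 arrays, and Sox9, Wt1, Gata1, Dmrt1 and Cldn11 were among them. On each array 62.18% to 64.49% of spots were clear of background, against 54.89% to 74.42% over all 34 arrays. Replicate arrays correlated across genes at r = 0.99822 for RA and 0.99815 for vehicle, while arrays of different groups correlated at 0.98451 to 0.9854. Transcripts of other cells were present in the cultures. Spermatocyte and spermatogonial genes such as Ldhc, at 3.87 and 3.41 with RA and 3.37 and 3.42 with vehicle, and Ddx4, at 0.88 and 0.68 with RA and 0.59 and 0.57 with vehicle, were well above background on every array, as were the smooth muscle actin gene Acta2 of peritubular myoid cells and the steroidogenic gene Star of Leydig cells. The share of RNA from other cells was not tested, and fewer cells of a type and less RNA per cell cannot be told apart in bulk RNA. Levels here are log2 signals minus the 75th percentile of the array, so 0 is the level of that percentile, and they are not compared between genes.

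RA changed many genes by small amounts and fewer by large ones. The test took genes that cleared background on both RA arrays, both vehicle arrays or all 4, which left 20072 genes, 12314 of them with a gene symbol. By limma's moderated test on these 4 arrays with Benjamini-Hochberg adjustment, 3529 genes (17.6%) were higher and 3667 (18.3%) lower with RA at an adjusted p under 0.05. Of these 7196 calls, 64.3% were under 1.5-fold, and the median size of a called difference was 0.454 on the log2 scale. At 2-fold or more, 616 genes (3.07%) were higher and 420 (2.09%) lower. The large changes leaned upwards: 64 genes were over 8-fold higher and 5 over 8-fold lower. The median difference over all genes tested was 0.0089. Without regard to a test, both RA arrays lay above both vehicle arrays in 37.6% of genes and below them in 36.7%, so groups that do not overlap are common here.

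The spread in the fit rests on 2 arrays a group. When the 6 arrays of whole testes and sorted Sertoli cells were added, so that 10 arrays shared 1 estimate of the spread, 712 genes (3.55%) were higher and 388 (1.93%) lower, every one of them also called from the 4 arrays, and 425 higher and 191 lower genes were at least 2-fold. In what follows "the 10-array fit" is this second fit, and a gene that failed it is named as such. It takes the same difference from the same 4 arrays, so passing it is not independent support. Under normexp background correction with the local background held below its 99th percentile on each array, 391 genes were at least 2-fold higher and 133 at least 2-fold lower. There were 93 genes well above background on both RA arrays and neither vehicle array, and 413 on both vehicle arrays and neither RA array. Such genes entered the test through the group where they were high, so their p-values in either fit lend no support of their own. For them the size is a lower bound, set against the lowest signal well above background, and is written "at least". Counts at 2-fold use the fitted difference, and with these genes at their bound 606 genes (3.02%) were at least 2-fold higher and 350 (1.74%) lower.

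**Figure D1:**
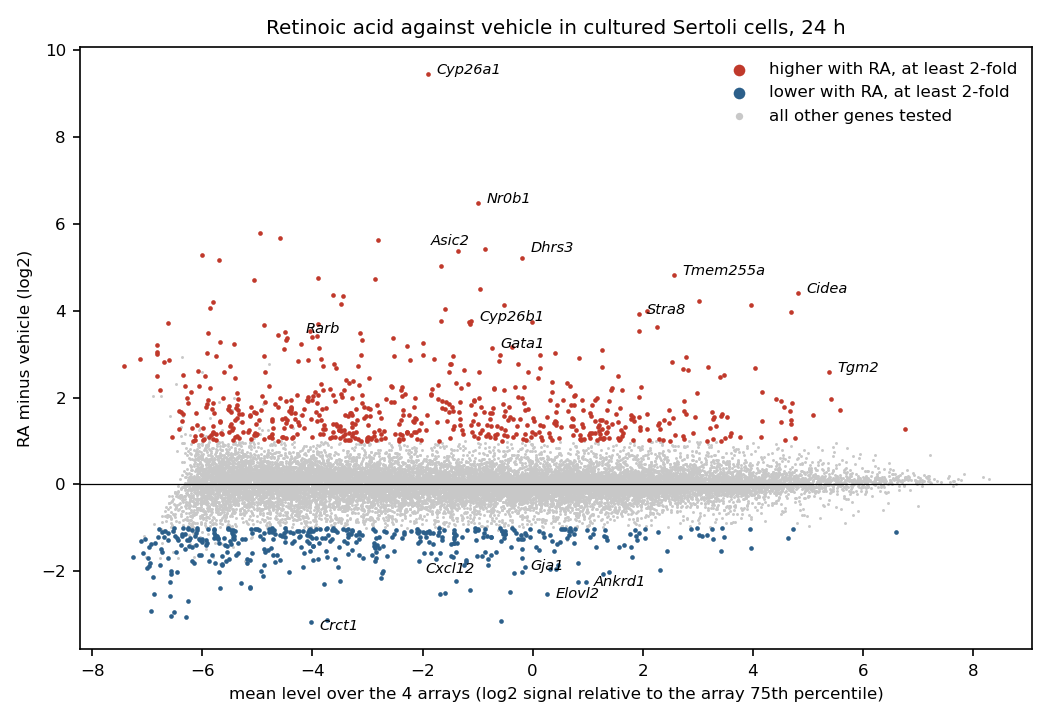
Difference between RA and vehicle (log2, vertical axis) against the mean level over the 4 arrays (log2 signal relative to the array's 75th percentile, horizontal axis) for the 20072 genes tested. Red points are the 616 genes at least 2-fold higher with RA, blue points the 420 at least 2-fold lower, and grey points all others. Cyp26a1 stands furthest from 0.

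Several genes that destroy, store, convert or take up retinoids rose with RA, while genes for the enzymes that make RA from retinaldehyde fell by less than 2-fold. Of 24 tested members of the retinoid metabolism list 9 were higher (37.5%, against 17.6% of all genes), 4 lower (16.7%, against 18.3%) and 11 not called. At least 2-fold higher were 6 (25%), against 3.07% of all genes. The members and lists were chosen with earlier results of these data known, so the list's share describes the arrays and supports no claim of its own. Cyp26a1, whose enzyme degrades RA, stood at 2.81 and 2.85 on the RA arrays, against -6.51 and -6.71 on the vehicle arrays, where it was not well above background. That is at least 663-fold higher with RA (adjusted p = 0.000331). Cyp26a1 entered the test through the RA arrays alone, so this p-value lends no support. Its paralog Cyp26b1 stood at 0.77 and 0.76 with RA, against -3.06 and -2.93 with vehicle, 13.5-fold higher. In both genes the RA arrays lay far above the vehicle arrays and differed little from each other.

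Genes for the interconversion of retinol and retinaldehyde and for storage followed. Dhrs3, which reduces retinaldehyde back to retinol, stood at 2.39 and 2.44 with RA, against -2.92 and -2.68 with vehicle, a 37-fold difference. Rdh10, the enzyme that oxidises retinol to retinaldehyde, stood at 1.52 and 1.59 with RA and -2.65 and -2.52 with vehicle, 17.6-fold higher. Lrat, which esterifies retinol for storage, stood at -3.69 and -3.73 with RA and was not well above background with vehicle, at -8.29 and -7.52, so it was at least 7.31-fold higher. Stra6, a membrane receptor that takes up retinol, stood at 0.03 and 0.05 with RA and -1.56 and -1.64 with vehicle, 3.12-fold higher. These 6 genes were named for their size on these arrays, so their RA and vehicle arrays lying apart adds no support. All 6 also passed the 10-array fit, at adjusted p from 1.13e-05 to 0.00498. Cyp26a1 and Lrat entered the test through the RA arrays alone, so their p-values lend no support.

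The 3 retinaldehyde dehydrogenases, named here after their values were seen, changed in the other direction and by less. Aldh1a1 stood at 6.71 and 6.79 with RA, against 7.23 and 7.27 with vehicle, a difference of -0.50 (SE 0.05). Aldh1a2 differed by -0.27 (SE 0.04) and Aldh1a3 by -0.85 (SE 0.04). The adjusted p values were 0.00637, 0.0164 and 0.00164, and Aldh1a2 did not pass the 10-array fit (adjusted p = 0.8). The 2-fold fall in the list was of the alcohol dehydrogenase gene Adh7, also named after its values were seen, with a difference of -1.08 (SE 0.10) and 1 of 2 RA arrays well above background.

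The promoters of Cyp26a1 and Rarb carry a DR5, the direct repeat of the receptors' short motif spaced by 5 bases that is known as the RA response element of both genes, so their windows are shown. They come from RefSeq on GRCm38.p6 and run from 250 bases before to 50 bases after the gene's start, 5′ to 3′ on the gene's strand, with the repeated motifs in capitals. The Cyp26a1 window is chr19:37697558-37697857 on the plus strand and the Rarb window chr14:16575427-16575726 on the minus strand.
Cyp26a1: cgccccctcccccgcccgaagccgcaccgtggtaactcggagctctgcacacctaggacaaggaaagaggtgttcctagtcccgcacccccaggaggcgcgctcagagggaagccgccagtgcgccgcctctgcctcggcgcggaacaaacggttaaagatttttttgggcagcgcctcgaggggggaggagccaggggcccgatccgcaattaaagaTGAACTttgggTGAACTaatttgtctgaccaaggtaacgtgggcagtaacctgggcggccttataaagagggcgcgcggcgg
Rarb: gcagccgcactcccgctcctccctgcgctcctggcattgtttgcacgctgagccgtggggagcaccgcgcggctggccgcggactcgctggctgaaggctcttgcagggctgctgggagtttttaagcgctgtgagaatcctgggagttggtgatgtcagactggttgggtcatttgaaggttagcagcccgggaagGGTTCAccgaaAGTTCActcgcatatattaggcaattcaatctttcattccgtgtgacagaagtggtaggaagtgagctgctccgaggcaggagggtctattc
The Cyp26a1 repeat begins at -32 from the gene's start and reads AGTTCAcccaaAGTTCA on the other strand, and the Rarb repeat begins at -53.

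The search covered both strands for direct repeats, in any pairing, of the receptor motif in its common form AGGTCA or its variants written AGTTCA, then also GGGTCA, and lastly GGTTCA, spaced by 5, 2 or 1 bases (DR5, DR2 and DR1). A DR5 was present in the windows of 31 of 27025 genes (0.115%), of 7 of the 9852 tested genes with a window (0.0711%), of 3 of the 306 genes at least 2-fold higher with RA (0.98%) and of 0 of the 195 at least 2-fold lower. The counts are small and no test was made of them. The other raised gene with a DR5 was Prokr2, a receptor for prokineticins, and Tinagl1, a matrix protein gene, had a DR2 (0.327% of the raised genes, against 0.102% of those tested and 0.311% of all). A DR1 was present in 0 raised genes and 1 lowered gene, Txndc2 (0.513%), against 0.264% of those tested and 0.263% of all. These 3 genes are named after their values were seen. The sites are at chr2:132385575-132385591 and chr4:130175216-130175229.
Prokr2: AGGTCAcaacgGGTTCA
Tinagl1: GGGTCActGGGTCA
Prokr2 stood at -4.74 and -4.84 with RA, against -6.02 and -6.15 with vehicle, and Tinagl1 at 2.65 and 2.78 with RA, against 0.54 and 0.53 with vehicle. Other raised members of the retinoid lists had none of these repeats in their windows, namely Cyp26b1, Dhrs3, Hic1, Lrat, Rec8, Rora, Stra6 and Stra8, which says only that these letters are not in the windows searched. Rdh10, Tgm2 and Rarres2 had no window and were not searched.

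Of the receptors, Rarb rose and Rara did not pass the test. Rarb stood at -1.42 and -1.37 with RA, against -5.00 and -4.75 with vehicle, 11.2-fold higher (adjusted p = 0.000639). Rara stood at -3.70 and -3.79 with RA and at -4.0 and -3.9 with vehicle, a difference of 0.20 (SE 0.06, adjusted p = 0.075). Rarg, at -5.47 and -5.37 with RA and -6.03 and -6.47 with vehicle, lay close to background, with 1 of 2 vehicle arrays well above it, and its difference of 0.83 (SE 0.17) failed the 10-array fit (adjusted p = 0.643), the fit without a detection filter (0.0502) and the replicate block (0.0664). The sign of both Rara and Rarg turned under normexp on the deposited background, to -0.21 and -0.27.

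Among the other nuclear receptors of the list the orphan receptor Rora stood at -0.17 and -0.12 with RA, against -1.28 and -1.16 with vehicle, 2.11-fold higher. Nr2f2, the orphan receptor COUP-TFII, differed by -0.78 (SE 0.15), lost in the 10-array fit (adjusted p = 0.157) and with the replicate block (0.0726). The coactivator gene Ncoa3 differed by 0.50 (SE 0.04), and its 10-array adjusted p was 0.222. Of 16 tested members of the list 6 were higher and 3 lower (37.5% and 18.8%, against 17.6% and 18.3% of all genes). Rarb and Rora were the 2 that reached 2-fold. The retinoid X receptor gene Rxrg, Nr2f1, Ppard and Rorb were below the detection rule.

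**Figure D2:**
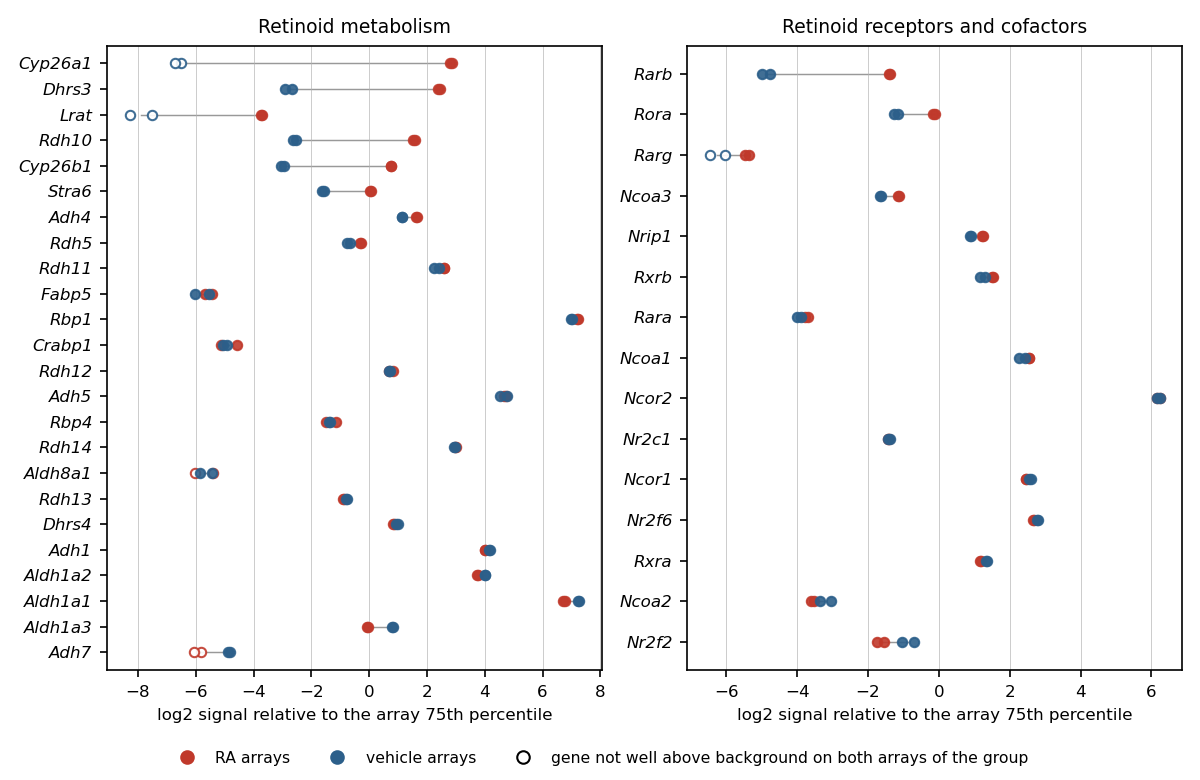
Level of the retinoid genes reported here on each array (log2 signal relative to the array's 75th percentile), with retinoid metabolism on the left and receptors and cofactors on the right, ordered by the difference. Red points are the 2 RA arrays, blue points the 2 vehicle arrays, open points mark a group in which the gene was not well above background on both arrays, and the grey line joins the group means. The upper rows, Cyp26a1 to Stra6 and Rarb to Rora, show RA arrays clear of the vehicle arrays.

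Most tested genes known as RA targets in other cells rose. Of 20 tested members of the textbook RA target list 15 were higher and 1 lower (75% and 5%, against 17.6% and 18.3% of all genes). At least 2-fold higher were 12 (60%, against 3.07%), and the median difference was 1.51, against 0.0089 over all genes. This list too was chosen with earlier results of these data known, so its shares describe the arrays and support no claim. Its members Cyp26a1 and Lrat entered the test through the RA arrays alone. Stra8, the gene that RA switches on in germ cells before meiosis, stood at 3.94 and 3.83 with RA, against -0.02 and -0.04 with vehicle, 15.1-fold higher. Rec8, the meiotic cohesin subunit, stood at 1.21 and 1.19 with RA, against -1.36 and -1.40 with vehicle, 5.97-fold higher. Both passed the 10-array fit (adjusted p = 1.77e-05 and 0.00425). Another 3 of the 12 are named after their values were seen. Tgm2, the tissue transglutaminase, stood at 6.67 and 6.66 with RA and 4.08 and 4.09 with vehicle, 5.98-fold higher. Hic1, a transcriptional repressor, was 2.59-fold higher and Rarres2, the chemerin gene, 2.58-fold, and Rarres2 failed the 10-array fit (adjusted p = 0.123). The member that fell was the laminin gene Lamb1, with a difference of -0.55 (SE 0.05) and a 10-array adjusted p of 0.3.

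Stra8 and Rec8 are genes of germ cells, and germ cell transcripts were present in both groups. The summed linear level of the 12 measured spermatogonia markers was 107.3 and 105.8 on the RA arrays, against 32.53 and 30.84 on the vehicle arrays. Without Stra8 and the ubiquitin hydrolase gene Uchl1 the sum of the other 10 was 5.52 and 4.98 with RA and 4.26 and 4.05 with vehicle. Uchl1 stood at 6.43 and 6.44 with RA, against 4.77 and 4.69 with vehicle, 3.26-fold higher. Of 10 tested markers 4 were higher (40%, against 17.6% of all genes) and 1 lower (10%, against 18.3%). The others raised were Kit and Id4 (0.83, SE 0.05, and 0.66, SE 0.08, both lost in the 10-array fit). The one called lower, Gfra1, differed by -0.46, turned to 0.08 under normexp with the background held and failed the 10-array fit (adjusted p = 0.824), and its other probe differed by -0.03. Ddx4 (difference 0.20) and Dazl (0.12) did not pass. Of 15 tested spermatocyte markers 4 were higher (26.7%, against 17.6% of all genes) and 0 lower (against 18.3%). Besides Rec8 these were Spo11, Smc1b and Tex101, all lost in the 10-array fit (adjusted p from 0.398 to 0.53). The median difference was 0.24 for spermatocyte and 0.23 for spermatogonia markers, against 0.0089 over all genes. Spermatocyte markers without Rec8 summed to 30.65 and 25.55 with RA and 24.29 and 24.99 with vehicle. Of 8 tested spermatid markers limma called 0 in either fit, 1 having an unadjusted p under 0.05. The part of germ cell number in the levels of Stra8 and Rec8 was not tested.

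Hox genes, which RA regulates in the embryo, showed no such rise. Of 39 listed, 37 were measured and 13 passed the detection rule, of which 1, Hoxb2, was higher and 4, Hoxb7, Hoxb9, Hoxd10 and Hoxd4, lower (7.69% and 30.8%, against 17.6% and 18.3% of all genes). Hoxb2 stood at -5.02 and -4.82 with RA and -5.44 and -5.32 with vehicle, a difference of 0.46 (SE 0.09), whose sign turned under normexp on the deposited background (-0.34). Hoxd10 stood at -4.36 and -4.61 with RA and -4.02 and -3.90 with vehicle, a difference of -0.53 (SE 0.11). None of the 5 reached 2-fold or passed the 10-array fit, where their adjusted p ran from 0.168 to 0.82.

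Sertoli transcription factors and nuclear receptors included some of the steepest rises, while Sox9 and Wt1 differed by under 2-fold. Nr0b1 (DAX1), a nuclear receptor that represses steroidogenic genes, stood at 2.23 and 2.27 with RA, against -4.33 and -4.13 with vehicle, 89.1-fold higher (adjusted p = 0.000339). Nr5a1 (SF1), the receptor it is known to restrain, stood at -0.52 and -0.48 with RA and -0.62 and -0.59 with vehicle, a difference of 0.11 (SE 0.04) that did not pass (adjusted p = 0.129). Gata1, a zinc finger factor of Sertoli cells, stood at 0.88 and 0.78 with RA, against -2.32 on both vehicle arrays, 8.86-fold higher. Sox9, the factor that directs Sertoli fate, stood at 3.79 on both RA arrays and at 3.32 and 3.29 with vehicle, a difference of 0.48 (SE 0.04) that failed the 10-array fit (adjusted p = 0.0878). Wt1, at 3.88 and 3.85 with RA and 3.12 and 3.17 with vehicle, differed by 0.72 (SE 0.04) and passed it (adjusted p = 0.0392).

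The Sertoli transcription factor list had 7 of 19 tested members higher and 5 lower (36.8% and 26.3%, against 17.6% and 18.3% of all genes). Nr0b1 and Gata1 were at least 2-fold higher and Emx2, a homeobox gene, 2.02-fold lower (10-array adjusted p = 0.241). The other nuclear receptors had 7 of 21 higher and 5 lower (33.3% and 23.8%, against 17.6% and 18.3% of all genes). Vdr, the vitamin D receptor, stood at 1.68 and 1.64 with RA and -0.17 on both vehicle arrays, 3.55-fold higher, and Pparg, the receptor of fat cell differentiation, at -0.95 and -1.07 with RA and -2.42 and -2.48 with vehicle, 2.72-fold higher. Both passed the 10-array fit (adjusted p = 0.00195 and 0.0103). Nr5a2 (LRH-1) stood at -4.89 and -4.98 with RA and -3.56 and -3.43 with vehicle, 2.72-fold lower, and failed it (adjusted p = 0.416). Each of these was named for its size on these arrays, so RA arrays lying outside the vehicle range add no support.

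Secreted products of Sertoli cells moved both ways, with 7 of 23 tested members higher (30.4%, against 17.6% of all genes) and 8 lower (34.8%, against 18.3%). None of the 23 passed the 10-array fit. Shbg, the androgen binding protein, stood at 2.91 and 2.86 with RA, against 1.86 and 1.87 with vehicle, 2.03-fold higher, and the inhibin alpha gene Inha differed by 0.96 (SE 0.04). Follistatin (Fst), which binds activin, stood at -1.02 and -1.21 with RA, against 0.44 and 0.22 with vehicle, 2.72-fold lower. The FSH receptor gene Fshr differed by -0.59 (SE 0.11) and the aquaporin gene Aqp8 by -1.12 (SE 0.14). None of these 5 passed the 10-array fit (adjusted p from 0.0846 to 0.53), and Aqp8 also lost its call when either vehicle array was left out. The claudin gene Cldn11, a main component of the Sertoli cell barrier, stood at 5.53 and 5.54 with RA and 5.45 and 5.41 with vehicle, a difference of 0.11 (SE 0.04, adjusted p = 0.124).

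Beyond the retinoid genes and Nr0b1, the largest rises were of genes of many kinds. Asic2, an acid-sensing ion channel subunit, stood at 1.85 on both RA arrays, against -3.80 and -3.35 with vehicle, 42.8-fold higher. Car11, a carbonic anhydrase relative without enzyme activity, stood at 1.39 and 1.26 with RA, against -4.02 and -4.08 with vehicle, 41.4-fold higher. Gas1, a membrane-anchored hedgehog co-receptor, stood at 0.80 and 0.91 with RA, against -4.39 and -3.98 with vehicle, 32.8-fold higher. These 3 were low with vehicle but well above background, and the RA arrays lay closer to each other than the vehicle arrays in Asic2 and Gas1.

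Tmem255a, a transmembrane protein gene, stood at 4.98 and 5.00 with RA, against 0.22 and 0.11 with vehicle, 28.3-fold higher. Cidea, a protein of lipid droplets, stood at 7.07 and 6.98 with RA, against 2.67 and 2.59 with vehicle, 21.1-fold higher. Cdc42ep5, an effector of the small GTPase Cdc42, stood at 1.33 and 1.27 with RA, against -3.18 and -3.23 with vehicle, 22.7-fold higher. In these genes the vehicle level was itself clear of background. The remaining large rises were of Usp43, a ubiquitin protease, with 1 of 2 vehicle arrays well above background (26.9-fold), the netrin gene Ntn5, not above it with vehicle (at least 23.1-fold), the fucosyltransferase Fut2 (20.4-fold), the histamine receptor Hrh3 (20.1-fold) and C2cd4c (17.7-fold). All 15 of the largest rises passed the 10-array fit, at adjusted p up to 0.00204. For Cyp26a1 and Ntn5, which entered the test through the RA arrays alone, those p-values lend no support.

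The largest falls were smaller than the largest rises. Crct1 stood at -5.44 and -5.77 with RA, against -2.60 and -2.27 with vehicle, 8.96-fold lower. Elovl2, an elongase of polyunsaturated fatty acids, stood at -0.93 and -1.07 with RA, against 1.5 and 1.55 with vehicle, 5.74-fold lower. Emilin3, a matrix glycoprotein gene, was 5.71-fold lower, at -2.96 and -2.93 with RA, against -0.46 and -0.40 with vehicle. The arrays of the groups lay apart by over 2 on the log2 scale in each.

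Serpina6, the corticosteroid-binding globulin, stood at -2.80 and -2.87 with RA, against -0.41 and -0.27 with vehicle, 5.63-fold lower, and the aldehyde dehydrogenase Aldh1a7 at -1.69 and -1.60 with RA, against 0.80 and 0.87 with vehicle, 5.58-fold lower. Sp5, a transcription factor known as a direct Wnt target, stood at -2.40 and -2.31 with RA, against 0.13 and 0.02 with vehicle, 5.38-fold lower. Stc2, a stanniocalcin, stood at 0.21 and 0.26 with RA and 2.31 and 2.30 with vehicle, 4.20-fold lower. Ooep, Mab21l3 and Dock4, an activator of Rac, were 4.89-, 4.71- and 4.15-fold lower, and another Dock4 probe differed by -1.26 on the log2 scale. Of the 15 falls, 5 failed the 10-array fit: Ankrd1, a nuclear ankyrin repeat protein (4.76-fold lower, adjusted p = 0.163), the neurofilament gene Nefl (4.73-fold, 0.255), Kctd14 (4.71-fold, 0.0611), Ciita, the activator of MHC class II genes (at least 4.5-fold, 0.098), and the citrate transporter Slc13a5 (4.33-fold, 0.0606). Ciita and Slc13a5 also lost their calls when either vehicle array was left out.

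**Figure D3:**
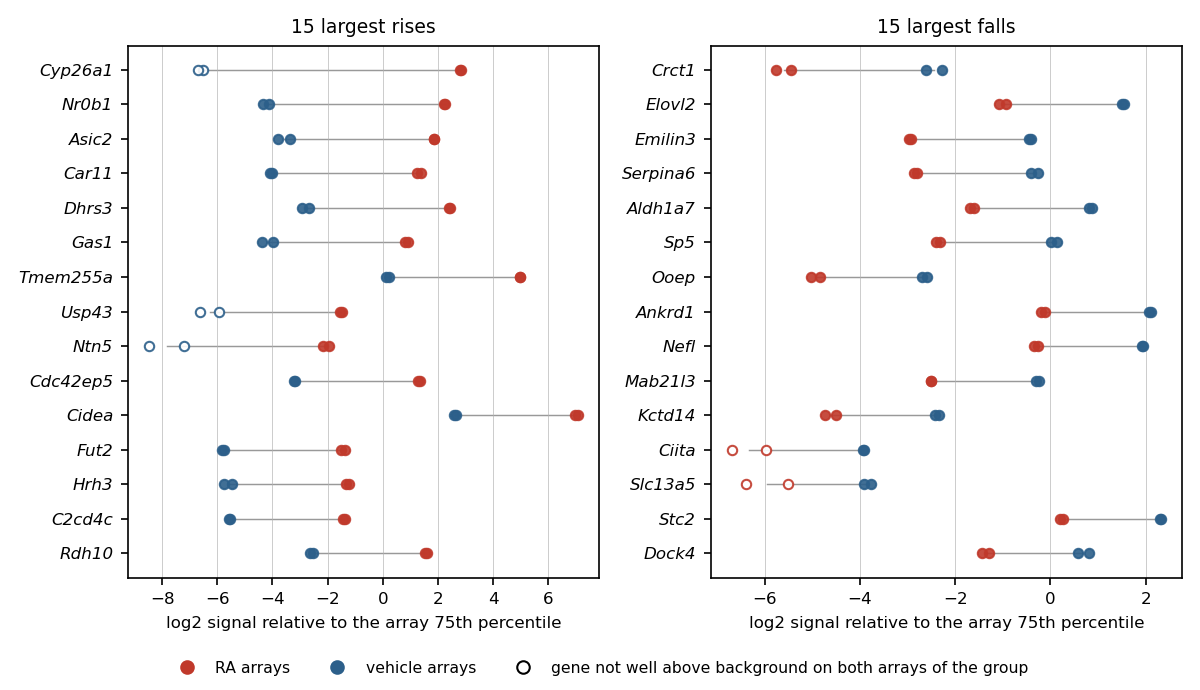
Level on each array (log2 signal relative to the array's 75th percentile) of the 15 genes with the largest rise (left) and the 15 with the largest fall (right) among called genes with a symbol. Red points are the 2 RA arrays, blue points the 2 vehicle arrays, open points mark a group in which the gene was not well above background on both arrays, and grey lines join the group means. The rows were chosen by size on these arrays, so the lack of overlap in every row is no further support.

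Signals that Sertoli cells send to spermatogonial stem cells were mostly lower with RA. Of 19 tested niche signals 10 were lower (52.6%, against 18.3% of all genes) and 4 higher (21.1%, against 17.6%), and the median difference was -0.31. Gdnf, the factor that keeps stem cells renewing, stood at -3.42 and -3.51 with RA, against -2.63 and -2.62 with vehicle, 1.79-fold lower. Cxcl12, a chemokine that holds stem cells in the niche, stood at -1.80 and -1.68 with RA, against -0.01 and 0.22 with vehicle, 3.59-fold lower. Wnt6 stood at 1.38 and 1.31 with RA, against 2.11 and 2.19 with vehicle, 1.75-fold lower. These 3 passed the 10-array fit (adjusted p = 0.0117, 0.00348 and 0.0117).

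Igf1 and Vegfc, at 1.99- and 1.85-fold lower, failed the 10-array fit (adjusted p = 0.575 and 0.543). Wnt5a, which supports stem cell survival, was the niche gene that rose by over 2-fold, at -2.20 and -2.16 with RA, against -3.40 and -3.26 with vehicle, and narrowly failed the 10-array fit (adjusted p = 0.0751). Kitl, the Kit ligand of differentiating spermatogonia, stood at 1.62 and 1.66 with RA and 1.67 and 1.69 with vehicle, a difference of -0.04 (SE 0.04, adjusted p = 0.459) that turned to 0.01 under normexp on the deposited background. With its 2 probes averaged the Kitl difference was -0.30 and passed (adjusted p = 0.0115). Endothelial markers summed to 0.849 and 0.907 with RA, against 1.24 on both vehicle arrays, and without Kdr to 0.639 and 0.694 with RA, against 0.781 and 0.800 with vehicle. Their median difference was -0.50, with 2 of 7 tested lower (28.6%, against 18.3% of all genes) and 1 higher (14.3%, against 17.6%). The part of endothelial cell number in Cxcl12, Vegfc and the other niche genes was not tested.

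Several connexins, the channel proteins of gap junctions, fell. Of 11 tested gap junction genes 5 were lower (45.5%, against 18.3% of all genes) and 1 higher (9.09%, against 17.6%). At least 2-fold lower were 4 (36.4%), against 2.09% of all genes. With genes not above background taken at their bound the count was 3 (27.3%), against 1.74%. Gja1 (connexin 43), the main connexin of Sertoli cells, stood at -1.01 and -1.05 with RA, against 0.70 and 0.62 with vehicle, 3.23-fold lower. Gjb5 was not well above background on either RA array, at -8.42 and -8.36, against -5.68 and -5.27 with vehicle, at least 1.66-fold lower, and did not pass under normexp with the background held (adjusted p = 0.0631). Gja1 passed the 10-array fit (adjusted p = 0.00167). Gjb5 did too (0.0032), but it entered the test through the vehicle arrays alone, so that p-value lends no support. The pannexin gene Panx1 differed by -0.71 (SE 0.05) and Gjb2 rose 2.03-fold, both lost in the 10-array fit (adjusted p = 0.353 and 0.383).

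Chemokine and cytokine genes moved both ways, 7 of 20 tested higher and 7 lower (35% each, against 17.6% and 18.3% of all genes). Il34, a ligand of the macrophage growth factor receptor, stood at 1.55 and 1.53 with RA, against -0.84 and -0.79 with vehicle, 5.10-fold higher, and passed the 10-array fit (adjusted p = 0.00739). Cxcl14 was 3.02-fold higher and Ccl17 2.39-fold, against 2.42-fold lower for Ccl2 and 2.93-fold lower for Ccl7, the monocyte chemokines, and these 4 failed it (adjusted p from 0.14 to 0.482). Macrophage and immune markers summed to 3.49 and 3.73 with RA and 4.28 and 4.75 with vehicle. Of 9 tested, 1 (11.1%, against 18.3% of all genes) was called lower, Lyz2 (adjusted p = 0.0165), and it was lost in the 10-array fit (0.493). Without Lyz2 the sums were 1.75 and 1.79 with RA and 1.71 and 1.89 with vehicle. The part of macrophage number in these levels was not tested.

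Genes of the interferon response and antigen presentation were called lower in 11 of 27 tested (40.7%, against 18.3% of all genes) and higher in 3 (11.1%, against 17.6%), with a median difference of -0.28. Ddx58 (RIG-I), a sensor of viral RNA, stood at -3.23 and -3.11 with RA, against -1.95 on both vehicle arrays, 2.33-fold lower. Its other probes differed by -0.41 and -0.07, so the size depends on the probe. The immunoproteasome genes Psmb9 and Psmb8 differed by -0.93 (SE 0.05) and -0.81 (SE 0.08), and Gbp2, a guanylate-binding protein, by -0.83 (SE 0.05). Ddx58 and Psmb9 passed the 10-array fit (adjusted p = 0.00351 and 0.00638), while Psmb8 and Gbp2 did not (0.0527 and 0.0531). Oasl2, of the oligoadenylate synthetase family, went the other way, at 0.81 and 0.74 with RA, against -0.70 and -0.80 with vehicle, 2.88-fold higher. Ifit1 was not well above background on either RA array and was at least 1.37-fold lower, and it failed the 10-array fit (adjusted p = 0.106).

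Wnt pathway genes split by member, 15 of 42 tested higher (35.7%, against 17.6% of all genes) and 12 lower (28.6%, against 18.3%). At 2-fold or more, 5 were higher (11.9%, against 3.07%) and 4 lower (9.52%, against 2.09%). Dkk3, a secreted member of the dickkopf family, stood at -1.32 and -1.30 with RA, against -3.64 and -3.33 with vehicle, 4.5-fold higher. The ligand gene Wnt11 stood at 0.86 and 0.76 with RA, against -1.17 and -1.19 with vehicle, 3.97-fold higher. Rspo2, which amplifies Wnt signals, was not well above background with RA, at -8.09 and -7.88, against -4.97 and -5.10 with vehicle, at least 2.25-fold lower. Dkk3, Wnt11 and Sp5 (described above) passed the 10-array fit. Rspo2 did too, but it entered the test through the vehicle arrays alone, so its p-value lends no support. Lgr5, a receptor of R-spondins (2.63-fold higher, adjusted p = 0.257, and turned to -0.04 under normexp on the deposited background), and the Wnt antagonist Sfrp2 (2.49-fold lower, 0.0922) did not pass.

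Of 21 tested Notch pathway genes 9 were lower (42.9%, against 18.3% of all genes) and 1 higher (4.76%, against 17.6%). The ligand-like gene Dner stood at -0.53 and -0.55 with RA, against 1.39 and 1.42 with vehicle, 3.86-fold lower, and the target gene Hes1 at -2.01 and -1.98 with RA, against -0.90 and -0.83 with vehicle, 2.19-fold lower. Both passed the 10-array fit (adjusted p = 0.0439 and 0.0137), and Notch3 (difference -0.94, SE 0.09), Heyl (-0.53, SE 0.07) and Maml3 (-0.58, SE 0.07) did not. The gene called higher was Nrarp, a feedback inhibitor (0.50, SE 0.08), which failed the 10-array fit (adjusted p = 0.508) and turned to -0.43 under normexp on the deposited background.

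In the list of FGF and EGF family genes and MAPK feedback genes, 10 of 25 tested were higher and 7 lower (40% and 28%, against 17.6% and 18.3% of all genes). The receptor gene Fgfr4 stood at 1.91 and 1.95 with RA, against -1.19 and -1.02 with vehicle, 8.18-fold higher. Erbb3 was at least 3.53-fold higher and Erbb2 2.08-fold, both lost in the 10-array fit (adjusted p = 0.0794 and 0.241). Etv1, an ETS factor induced by FGF and GDNF signals, stood at -2.45 and -2.53 with RA, against -1.13 and -1.11 with vehicle, 2.58-fold lower, and passed it (adjusted p = 0.00658). Fgf18 was 2.04-fold lower and failed it (adjusted p = 0.163). In the TGF-beta and BMP list 6 of 40 were higher (15%) and 9 lower (22.5%), near the 17.6% and 18.3% over all genes. Bmp8b, a BMP ligand, was 2.11-fold lower (10-array adjusted p = 0.0155), and Gdf15 differed by 0.97 (SE 0.04) in the other direction.

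Lipid genes were called higher more often than lower, and apart from Cidea the rises were under 2-fold. Of 28 tested genes of fatty acid elongation, desaturation and lipid droplets 13 were higher (46.4%, against 17.6% of all genes) and 4 lower (14.3%, against 18.3%). Cpt1a, the gate of mitochondrial fatty acid oxidation, differed by 0.98 (SE 0.05) and the desaturase Fads1 by 0.98 (SE 0.06), with Cpt1a passing the 10-array fit (adjusted p = 0.016) and Fads1 not (0.0892). Elovl3 was 2.05-fold lower and the lipid droplet coat gene Plin1 1.74-fold, both lost there (adjusted p = 0.436 and 0.354). Cholesterol genes had 6 of 25 higher and 1 lower (24% and 4%, against 17.6% and 18.3% of all genes). They were led by the efflux transporter Abca1 (0.76, SE 0.04) and the last enzyme of synthesis Dhcr7 (0.57, SE 0.04), with 0 of the 25 passing the 10-array fit. In the glycolysis list 7 of 21 were higher and 3 lower (33.3% and 14.3%, against 17.6% and 18.3% of all genes). The liver-type phosphofructokinase Pfkl stood apart, at 2.81 on both RA arrays, against 0.30 on both vehicle arrays, 5.68-fold higher (10-array adjusted p = 0.000909). The lactate transporter Slc16a1 (0.56, SE 0.04) and hexokinase Hk2 (0.52, SE 0.06) failed that fit.

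Of 15 tested steroid synthesis genes 3 (20%) fell by over 2-fold, against 2.09% of all genes. Hsd17b3, which makes testosterone in the testis, stood at 0.38 and 0.49 with RA, against 1.91 and 1.82 with vehicle, 2.70-fold lower. Hsd3b1 was 2.80-fold lower and Hsd3b6 2.24-fold, and Hsd3b6 lost its call when either RA array was left out. In the other direction the cytochrome P450 reductase gene Por differed by 0.85 (SE 0.05), and Star, the cholesterol carrier into mitochondria, by 0.63 (SE 0.04). Por passed the 10-array fit (adjusted p = 0.0352) and the other 4 did not (0.0525 to 0.424). Several of these genes are Leydig markers, whose 11 measured members summed to 18.11 and 17.88 with RA and 16.36 and 17.04 with vehicle. Without Star the other 10 summed to 4.43 and 4.26 with RA, against 7.54 and 8.27 with vehicle. Those 10 include Hsd17b3, Hsd3b1 and Hsd3b6, so their sum does not describe Leydig cells apart from the genes that fell. Of the other tested markers Ptgds was lower (-0.27, lost in the 10-array fit). Cyp11a1 (0.055), Cyp17a1 (-0.012), Insl3 (-0.067) and Agt (-0.114) were not called. Insl3, the defining Leydig hormone, stood at -4.15 and -4.09 with RA and -4.23 and -3.87 with vehicle. The part of Leydig cell number was not tested.

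Junction, matrix and cytoskeleton genes each had a few large changes. In the tight junction list 6 of 20 were higher and 6 lower (30% each, against 17.6% and 18.3% of all genes). The claudin gene Cldn7 stood at 1.78 and 1.82 with RA, against -0.52 and -0.41 with vehicle, 4.8-fold higher. Occludin (Ocln) was 2.23-fold higher, and both failed the 10-array fit (adjusted p = 0.0786 and 0.0669). Nectin2, of the Sertoli to spermatid junction, stood at 2.23 on both RA arrays, against 1.00 and 0.97 with vehicle, 2.37-fold higher, and passed it (adjusted p = 0.00314). The integrin alpha genes Itga4 and Itga6 and the cadherin Cdh13 were 2.19-, 1.87- and 2.03-fold lower and did not pass it (0.199 to 0.437). The catenin gene Ctnna2 was 1.83-fold lower and the adhesion gene Nrcam 1.88-fold higher, and both passed it (adjusted p = 0.00508 and 0.0202). Of 27 tested cell adhesion genes 5 were higher and 8 lower (18.5% and 29.6%, against 17.6% and 18.3% of all genes).

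Among proteases 6 of 27 were higher and 10 lower (22.2% and 37%, against 17.6% and 18.3% of all genes). The membrane metalloproteinase Mmp15 stood at -0.46 and -0.54 with RA, against -3.48 and -3.50 with vehicle, 7.93-fold higher. Plat, the tissue plasminogen activator known to vary over the cycle of the epithelium, stood at 4.04 and 3.97 with RA, against 2.70 and 2.62 with vehicle, 2.54-fold higher, and Mmp11 was 2.26-fold higher. Mmp14, another membrane metalloproteinase, was 1.84-fold lower, at 4.33 and 4.38 with RA, against 5.26 and 5.21 with vehicle. These 4 passed the 10-array fit (adjusted p from 0.00483 to 0.0305). Matrix genes had 10 of 34 higher and 8 lower (29.4% and 23.5%, against 17.6% and 18.3% of all genes), with elastin (Eln) 2.11-fold higher. Of 17 tested intermediate filament genes 4 were higher and 5 lower (23.5% and 29.4%, against 17.6% and 18.3% of all genes). Keratins went both ways, with Krt20 and Krt18 4.17- and 2.04-fold higher and Krt23 1.91-fold lower. The neurofilament genes Nefl, Nefm and Nefh were 4.73-, 2.74- and 1.96-fold lower. Krt20 and Krt23 passed the 10-array fit (adjusted p = 0.00571 and 0.0486), while Krt18 and the neurofilament genes did not. Myocd, the cofactor of smooth muscle genes, was 4.17-fold higher and failed it (adjusted p = 0.061), while the other 7 myoid markers summed to 70.55 and 71.37 with RA and 77.46 and 75.43 with vehicle.

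Cell cycle genes had 10 of 36 higher and 11 lower (27.8% and 30.6%, against 17.6% and 18.3% of all genes), and none reached 2-fold or passed the 10-array fit. The largest differences were in Ccnd1, cyclin D1 (0.91, SE 0.05), and in the inhibitor genes Cdkn1b (-0.71, SE 0.06) and Cdkn2a (0.70, SE 0.07). The cyclin E genes Ccne1 and Ccne2 differed by -0.65 (SE 0.05) and -0.61 (SE 0.09). Immediate early and heat shock genes had 4 of 23 higher and 7 lower (17.4% and 30.4%, against 17.6% and 18.3% of all genes). Fosb was 3.19-fold higher and lost in the 10-array fit (adjusted p = 0.331). Phagocytosis and lysosome genes had 4 of 31 higher and 6 lower (12.9% and 19.4%), the share lower being near that of all genes.

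**Figure D4:**
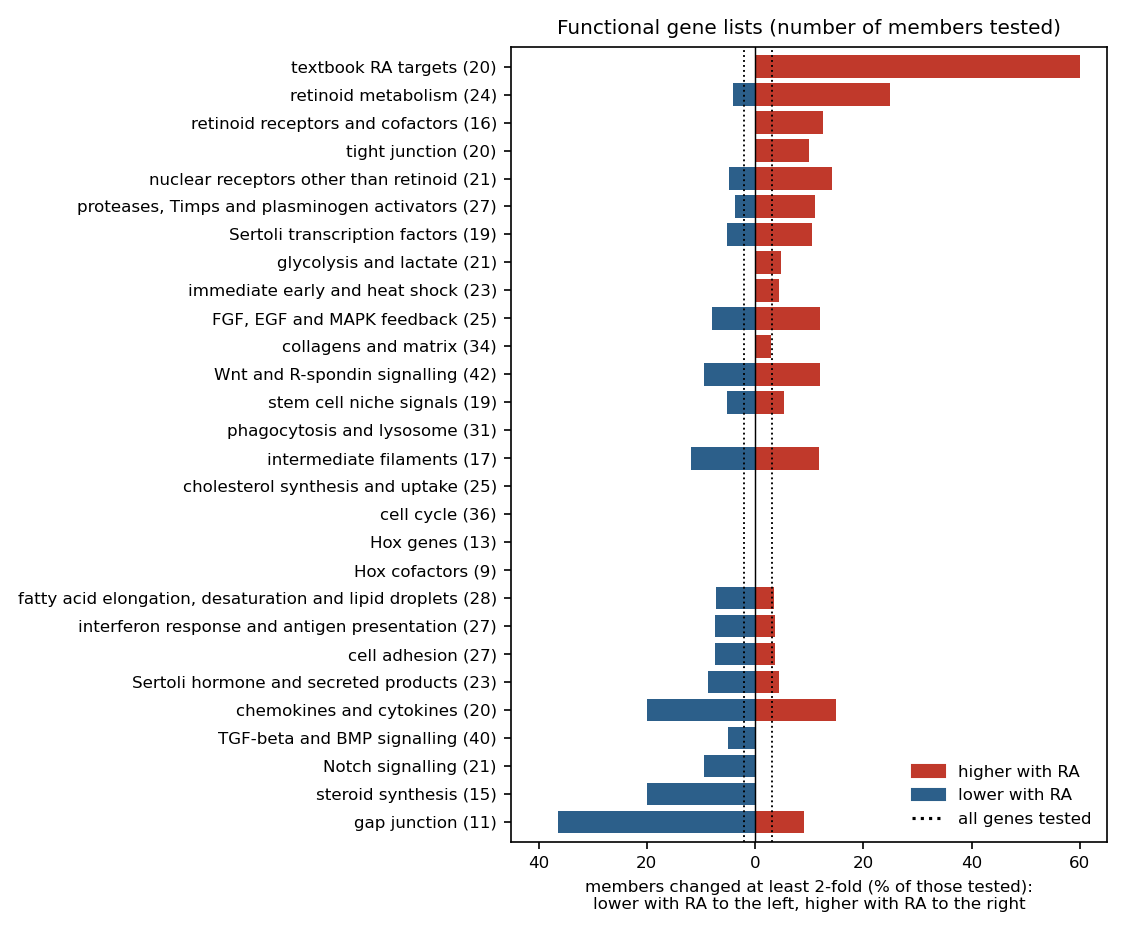
Share of the tested members of each of the 28 functional lists (number tested in brackets) that changed at least 2-fold at an adjusted p under 0.05, higher with RA to the right in red and lower to the left in blue. Dotted lines mark the shares over all 20072 genes, 3.07% and 2.09%. Shares use the fitted difference. Textbook RA targets reach 60% higher and gap junction genes 36.4% lower (27.3% at the bound), and the cell cycle, Hox, Hox cofactor, cholesterol and phagocytosis lists have no bar.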

How the data were processed

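One-colour Agilent arrays were read as deposited: per the labels and file headers, Feature Extraction 9.5 (header version 9.5.3.1) made the processed signal, an intensity after background subtraction, from 0.2 ug of RNA. The deposited series values held the same intensity at every spot within 0.1 percent. Of 45018 spots 1639 control spots were left out, as were spots flagged as outliers. Here log2 of the processed signal minus each array's 75th percentile was averaged over spots of a probe, and a gene was the probe with the highest mean over 34 arrays. Names came from RefSeq for 22951 probes by accession and 67 by symbol, and 18156 kept their identifier. The test was limma 3.58.1 in R 4.3.3 on 4 arrays (2 residual degrees of freedom), with a threshold of 0.05 after Benjamini-Hochberg adjustment. The rule for names took the 15 largest rises and falls, up to 6 called members of each list, called Hox genes and a set of retinoid and Sertoli genes. Members and lists were chosen with earlier results of these data known. On simulated data with 200 genes changed the test recovered 64 of 100 changed by 1 on the log2 scale and 20 of 100 changed by 0.5, and called 3 unchanged genes. Far more genes (35.9%) were called in the real comparison, so these counts are not its recovery or false-call rate. The number of arrays limits the precision. A few genes are not reported here.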

Additional observations from a re-analysis of the deposited data

How the results depend on the processing

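Quantile scaling, median centring, the deposited series values, averaging a gene's detected probes, requiring detection on all 4 arrays and an intensity trend left the counts of genes higher, lower and at least 2-fold within 1.5 times of those reported, although 43.6% of calls were higher under quantile scaling, against 49%. Without a detection filter 8575 genes were higher, 72.4% of calls, and the median of all genes moved to 0.1061. In the 10-array fit 712 genes were higher and 388 lower, 191 of the lower ones at least 2-fold, and in a fit of all 34 arrays 925 and 539, with 225. The higher share of calls was then 64.7% and 63.2%. Normexp on the deposited background left 241 genes higher and 111 lower, 207 and 90 at least 2-fold, 68.5% of calls higher and the median of all genes at -0.1069. On vehicle array 2 this correction met 4 spots of strongly negative net signal, the lowest at -2191, and fitted a background mean of -130, against -3.93 on vehicle array 1. Holding the local background to its 99th percentile, chosen after seeing the data, gave -2.81 there, 4959 higher and 3538 lower genes, and 391 and 133 at least 2-fold, and 58.4% of calls were higher. Leaving out 1 array gave 1950 to 2477 higher and 2020 to 2393 lower genes, and 626 to 645 and 363 to 448 at least 2-fold, with the lone array assumed to vary like the other group. Signs turned under normexp on the deposited background for Hoxb2 (-0.34), Nrarp (-0.433), Lgr5 (-0.038), Pecam1 (-0.473), Rarg (-0.265), Spo11 (-0.158), Rara (-0.211) and Kitl (0.009), and with the background held for Gfra1 (0.079). The cause of the other shifts was not tested. Both groups number their samples 1 and 2, and deviations of same-numbered arrays correlated at -0.077. That value cannot show whether same-numbered samples shared a culture preparation, which is not given, so the main fit took them as unpaired. With the replicate block 2391 genes were higher and 2419 lower, 603 and 403 at least 2-fold. Of 96 named genes that changed at least 2-fold, 92 kept an adjusted p under 0.05 in limma without any 1 array, 59 in the 10-array fit, 46 with normexp on the deposited background, 94 with the background held and 95 with the replicate block.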

Other observations

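The series also holds seminiferous tubules, taken 5 days after a virus carrying a dominant-negative RARA (dnRARa) or the fluorescent protein Venus, in 4 groups of epithelial stages. Virus and slide cannot be told apart there, so differences are given with no test. Of the 552 detected genes at least 2-fold higher with RA in culture, 168 (30.4%) were lower in dnRARa than in Venus tubules in all 4 stage groups, against 15% of the 19141 genes detected in both, and 52 (9.42%) were higher in all 4, against 19.1%. Of the 342 at least 2-fold lower with RA, 44 (12.9%) were lower and 57 (16.7%) higher in all 4. Cidea differed by -3.25, -5.31, -2.85 and -2.86 on the log2 scale at the earliest to the latest stages (I-III first, IX-XII last), dnRARa minus Venus. Tmem255a differed by -1.71, -4.12, -2.84 and -1.29, and Cyp26a1 by -0.12, -1.05, -1.94 and -2.14. Other genes raised by RA in culture were higher in dnRARa tubules: Rarb differed by 0.64, 0.60, 0.36 and 0.74 and Stra6 by 1.09, 0.88, 0.62 and 0.82, while Rdh10 differed by 0.27, 0.59, 0.28 and -0.85.

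Levels in Sertoli cells sorted from wild-type testes, on other slides, are given beside those in culture with no test. Nr0b1 stood at 2.23 and 2.27 in culture with RA, -4.33 and -4.13 with vehicle, and 2.0 and 2.44 in the sorted cells. For Dhrs3 the sorted cells stood at 3.33 and 3.49, and for Gata1 at -0.82 and -0.25. Sox9 was at -0.65 and -0.31 in sorted cells, and Gdnf was not well above background there.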
